A study of Mus musculus with 44 samples.

Results

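The 8 guanylate-binding protein genes described here are Gbp2, Gbp3, Gbp4, Gbp5, Gbp6, Gbp7, Gbp8 and Gbp9, taken by their symbols from a table of 55416 mouse genes. The family was selected on measured values, since Gbp3, Gbp5 and Gbp7 were known to differ between miR-150 knockout and wild-type Treg cultures of the same libraries. Comparisons that use the knockout or wild-type Treg libraries are therefore descriptions with no test. All 8 passed the filter on low counts, among 21873 genes that were tested, and the lowest count of any member in any library was 1078. Their levels were read in 44 libraries of polyadenylated RNA from mouse CD4 T cells.

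Naive CD4 T cells had been sorted from spleens of C57BL/6NTac mice that were either miR-150 knockout (KO), miR-150 knock-in (KI) or miR-150 wild type (WT). All were stimulated for 3 days at 150000 cells per well with antibodies to CD3 and CD28. Treg cultures also held TGF-b1 and an antibody that neutralises interferon-gamma, Th1 cultures held IL-12 and an antibody to IL-4, and Th0 cultures held nothing further. Each of the 9 groups had 5 libraries except Th0 KI, with 4. The age of the mice and the cells in which the knock-in allele acts are not stated in the labels, nor is it said whether libraries of a group come from separate mice, so p-values measure the spread between these libraries, which may be technical. A name such as Treg KO 2 gives the culture, genotype and number of a library, and cultures that share a genotype and number varied together over all genes in 8 of 9 pairings of groups.

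Guanylate-binding proteins are large GTPases that interferons, above all interferon-gamma, induce in many cell types. They gather on the membranes of vacuoles that hold intracellular microbes, break them open and feed inflammasome activation. Interferon-gamma acts on these genes through promoter elements called GAS, and through the transcription factor IRF1, which binds interferon-stimulated response elements (ISRE). T cells carry the same receptors and make these proteins when they sense interferon.

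Library totals ran from 60815821 to 137415965 counts, and all 5 CD4 T cell markers were present in each group. Foxp3, the lineage factor of regulatory T cells, was at most 4.35 CPM in Th0 and Th1 libraries. In the Treg libraries it ran from 376 to 596 CPM, except for 4 that were low: Treg KO 2 at 77.4 CPM, Treg KI 3 at 61.97 CPM, Treg WT 3 at 159 CPM and Treg WT 4 at 47.7 CPM. In these 4 the Th1 markers Tbx21, Ifng and Cxcr3 summed to 208.2, 219.5, 120.8 and 918 CPM in the same order, of which Ifng made up 157, 160.1, 78.7 and 846 CPM, against sums of 4.73 to 25.3 CPM in the other 11 Treg libraries. The 3 Treg markers Foxp3, Il2ra and Ikzf2 together did not set Treg apart from Th1 cultures. They summed to 1896 to 2788 CPM in Treg KO, 1534 to 2481 CPM in Treg KI and 1832 to 2543 CPM in Treg WT. In Th1 the sums were 1989 to 3670 CPM in KO, 1868 to 2215 CPM in KI and 1421 to 3469 CPM in WT. Il2ra ran from 673 to 3591 CPM over all libraries. The sums of 5 CD8 T and NK cell markers were high in the libraries numbered KO 2, KI 3 and WT 4, up to 668.5 CPM in Treg WT 4. B cell markers summed to between 11.3 and 969.5 CPM and were highest in Th0 KI 3. Mir150, the targeted gene, had 0 counts in the 15 KO libraries, 7 in the 14 KI libraries and 6 in the 15 WT libraries, at most 2 in any library, so the polyadenylated RNA holds too little of it to check the KI label.

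The genes lie in 2 clusters of GRCm38, the build of GENCODE release M21. On the plus strand of chromosome 3 lie Gbp5 (142493978 to 142522344), which in mouse is linked to assembly of the NLRP3 inflammasome, Gbp7 (142530342 to 142550149), linked to assembly of the phagocyte oxidase, Gbp3 (142560026 to 142573209) and Gbp2 (142620602 to 142638008), whose product coats vacuoles of Toxoplasma. On the minus strand of chromosome 5 lie Gbp8 (105014150 to 105139540), Gbp9 (105077630 to 105139539), Gbp4 (105115767 to 105139586) and Gbp6 (105270702 to 105293698). Gbp4, Gbp8 and Gbp9 share an exon of 60 to 61 bases.

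Reads of these paralogs could be confused in some cases. Of all 150-base words in Gbp6 transcripts, 59.1% also occur in another gene, 53.7% in the predicted gene Gm43302, whose exons overlap those of Gbp6, and others in Gbp10. For Gbp7 the share was 8.8%, all in the overlapping Gm43802. For the other 6 members it was 0.0%. Counts of Gbp6 are therefore uncertain, since no source used here says how reads with several matches were treated.

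RefSeq promoters of the chromosome 3 members (GRCm38.p6, 250 bases before to 50 after the start, plus strand) are shown because they carry the elements through which interferons act. The promoter set used held none for the chromosome 5 members, so theirs were not examined. The ISRE core GAAANNGAAA, searched on both strands, occurs in 3.44% of 32851 promoters, and the palindromic GAS core TTCNNNGAA in 8.3%. Capitals mark the matches, and the ISRE core stands on the opposite strand in each, so that its reverse complement is read. Positions are counted from RefSeq starts, which for Gbp2, Gbp3 and Gbp5 lie inside the GENCODE spans given above. Gbp2 (chr3:142620584-142620633) has 1 ISRE core 59 bases before its RefSeq start, and Gbp3 (chr3:142559979-142560034) has 2 overlapping ones, the first 45 bases before its own.
Gbp2: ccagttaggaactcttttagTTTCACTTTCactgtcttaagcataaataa
Gbp3: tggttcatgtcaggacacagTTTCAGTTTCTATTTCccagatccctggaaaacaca
Gbp7 (chr3:142530210-142530312) has an ISRE core 53 bases before its start and 2 GAS cores further out. Gbp5 has an ISRE core 165 bases before its RefSeq start and 2 GAS cores, the first at 245 bases (chr3:142496684-142496910).
Gbp7: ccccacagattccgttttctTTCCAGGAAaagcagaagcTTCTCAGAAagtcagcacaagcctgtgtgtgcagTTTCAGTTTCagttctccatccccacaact
Gbp5: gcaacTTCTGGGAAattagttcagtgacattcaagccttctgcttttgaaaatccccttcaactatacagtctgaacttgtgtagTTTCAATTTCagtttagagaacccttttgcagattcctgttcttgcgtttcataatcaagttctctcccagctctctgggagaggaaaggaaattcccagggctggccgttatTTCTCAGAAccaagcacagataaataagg
Promoters with both cores make up 0.45% of all, and Gbp5 and Gbp7 are among them. A second RefSeq promoter of Gbp3 has neither core. A match describes these letters and does not show binding.

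By group mean, Gbp2 was the most abundant member in all 9 groups when CPM was divided by the length of the longest coding transcript. Gbp5 came next in all 9. In Th1 KO the libraries of the 2 genes overlapped, at 57.4 to 194 CPM per kb for Gbp2 and 75.7 to 112.4 for Gbp5. Not divided by length, the Th1 KO means were 270.5 CPM for Gbp2 and 277 CPM for Gbp5. Gbp2 averaged 267 ± 96.4 CPM per kb in Treg KO, 132.8 ± 38.1 in Treg KI and 80.1 ± 40.97 in Treg WT (SD, n = 5 each). Gbp5 averaged 99.7 ± 29.7, 50.7 ± 15.7 and 33.4 ± 12.9 CPM per kb in the same 3 groups. In Th0 WT the order was Gbp2 at 310 ± 216 CPM per kb, Gbp5 at 77.3 ± 41.6, Gbp6 at 66.2 ± 39.9 and Gbp4 at 65.3 ± 48.6, then Gbp7, Gbp9, Gbp3 and Gbp8 between 20.8 and 13.8 (SD, n = 5). Each neighbouring pair in that order overlapped between libraries. The libraries of Gbp2 did not overlap those of Gbp5 in Th1 WT, Th0 KO and Th0 KI, and those of Gbp5 did not overlap the next member's in Th1 KO and Th1 KI.

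Gbp5 took a larger mean share of the family, and Gbp6 a smaller one, in Th1 than in Th0 cultures of each genotype. Gbp5 made up 33.8% ± 4.4 of the members' summed CPM per kb in Th1 KO, 27.3% ± 3.5 in Th1 KI and 22.5% ± 5.8 in Th1 WT, against 18.5% ± 2.7 in Th0 KO, 16.5% ± 0.56 in Th0 KI and 13.7% ± 3.6 in Th0 WT (SD, n = 5, 4 for Th0 KI). Gbp6 made up 5.91% ± 1.66 in Th1 KO, 8.12% ± 2.07 in Th1 KI and 5.86% ± 1.14 in Th1 WT, against 13.4% ± 3.8 in Th0 KO, 14.9% ± 2.0 in Th0 KI and 11.1% ± 2.5 in Th0 WT. These shares were not tested, and that of Gbp6 carries the doubt about its reads.

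**Figure D1:**
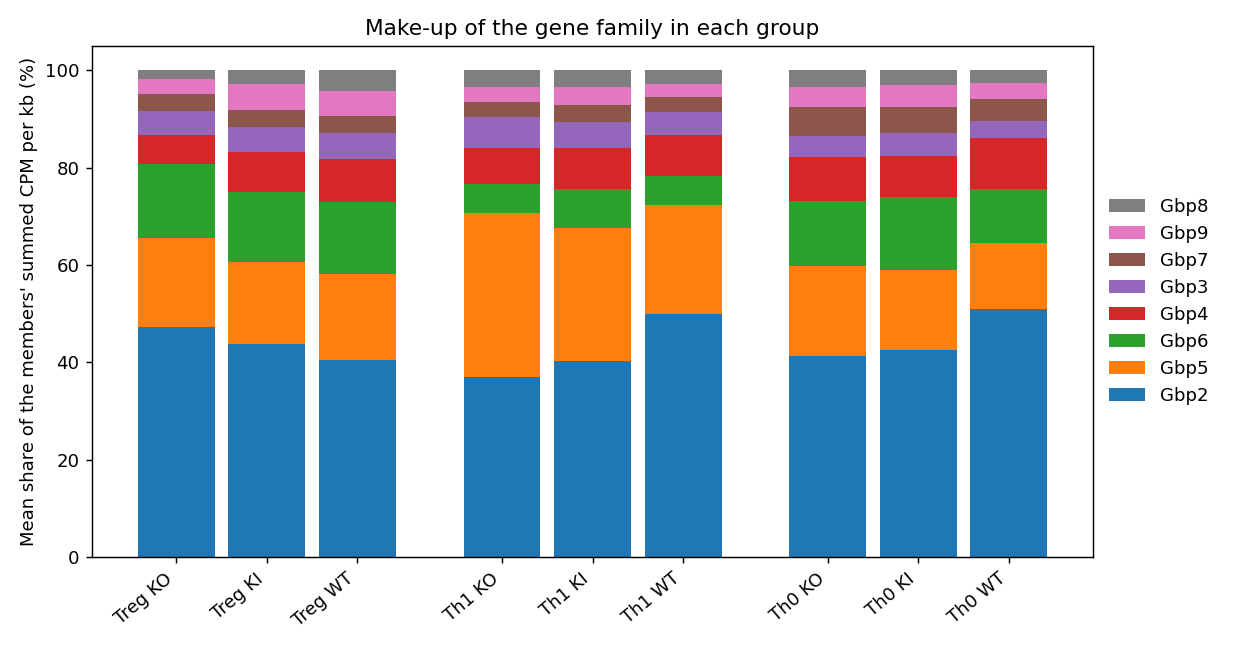
Mean share (%) of each member in the members' summed CPM per kb of transcript, for the 9 groups. Gbp5 takes 33.8% in Th1 KO against 18.5% in Th0 KO, and Gbp6 takes 5.91% in Th1 KO against 13.4% in Th0 KO.

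In Treg cultures the 8 genes stood higher in KO than in WT, and KI lay between them for 7 of 8. Gbp2 stood at 936, 298, 754.5, 590.3 and 784 CPM in Treg KO 1 to 5, at 344, 353, 461, 321 and 192 CPM in Treg KI 1 to 5, and at 307, 152, 319, 124.6 and 105.3 CPM in Treg WT 1 to 5. Treg KO 2, low in Foxp3, was the lone KO library within the WT range. The log2 fold change of Gbp2 was 1.74 ± 0.42 (SE) for KO against WT and 0.73 ± 0.41 for KI against WT.

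Gbp5 stood at 375, 157, 288, 378 and 325 CPM in Treg KO, at 161, 133.2, 235, 129.6 and 114.7 CPM in Treg KI, and at 129.9, 90.8, 155, 62.4 and 71.7 CPM in Treg WT. The KO and WT libraries did not overlap, though Treg KO 2 and Treg WT 3 were close, and the log2 fold change of KO against WT was 1.58 ± 0.31 (SE). Gbp7 stood at 140.8, 66.4, 98.0, 117.4 and 120.5 CPM in Treg KO, at 64.8, 39.75, 131.5, 46.6 and 29.8 CPM in Treg KI, and at 50.3, 27.8, 50.5, 35.8 and 22.2 CPM in Treg WT. Here too KO and WT did not overlap, and Treg KI 3 reached the KO range.

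Gbp3 stood at 84.7, 36.3, 87.9, 67.99 and 78.9 CPM in Treg KO, at 41.99, 42.5, 61.98, 37.8 and 25.9 CPM in Treg KI, and at 38.1, 22.8, 32.02, 19.8 and 19.7 CPM in Treg WT. Treg KO 2 lay below Treg WT 1. The log2 fold changes of KO against WT were 1.42 ± 0.25 for Gbp3 and 1.54 ± 0.32 (SE) for Gbp7. The chromosome 5 members had means in Treg KO, Treg KI and Treg WT (± SD, n = 5 each) of 215 ± 48.6, 119.5 ± 59.5 and 82.5 ± 63.1 CPM for Gbp6 and of 146 ± 42.97, 116.6 ± 52.1 and 74.7 ± 26.55 CPM for Gbp4. Those of Gbp9 were 72.5 ± 21.35, 69.5 ± 17.2 and 40.05 ± 16.04 CPM, and those of Gbp8 were 22.65 ± 6.84, 23.2 ± 15.8 and 17.7 ± 4.88 CPM. Gbp4 alone of these did not overlap between KO and WT. In log2 fold change of KO against WT Gbp6 had 1.38 ± 0.45, Gbp4 0.97 ± 0.37, Gbp9 0.86 ± 0.33 and Gbp8 0.36 ± 0.31 (SE).

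Gbp3, Gbp5 and Gbp7 were among the genes called higher in Treg KO at an adjusted p under 0.05, 3 of 8 where 0.105% of all genes were, and Gbp4, Gbp5 and Gbp7 did not overlap between KO and WT libraries, where 0.677% of all genes were higher without overlap. Nothing is read from these counts, since this comparison bore on the choice of the genes. In a fit of only the KO and WT Treg libraries 0 members and 0 genes in all were called, and without Treg WT 5 the members' count was 0. It was 1 without Treg KO 1, KO 4, KO 5 or Treg WT 2, 2 without Treg KO 3, 4 without Treg KO 2 and 5 without Treg WT 3. The median log2 fold change of the members was 1.40, against -0.01 for all genes. Without the 4 libraries low in Foxp3 it was 1.68, and without single Treg libraries it was lowest, at 1.23, without Treg WT 2 or Treg WT 5 and highest, at 1.57, without Treg WT 3.

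**Figure D2:**
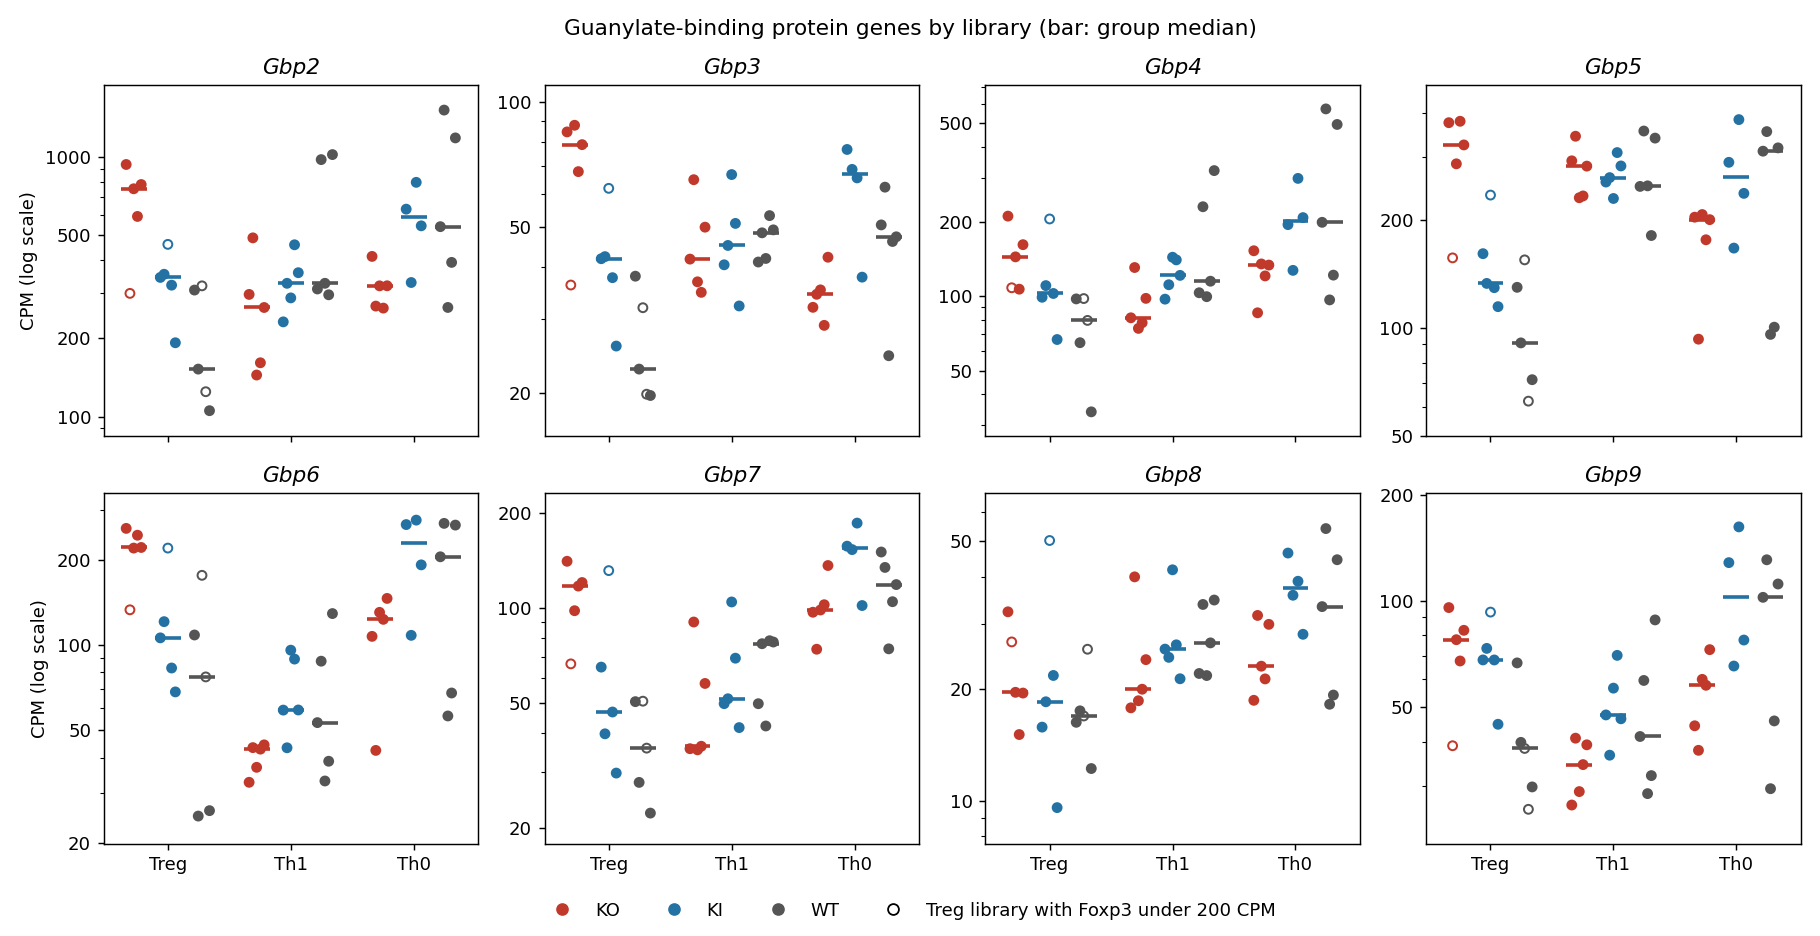
CPM (log scale) of each gene in each library, by culture and, within it, KO, KI and WT from left to right. Bars are group medians, and open circles are the 4 Treg libraries with Foxp3 under 200 CPM, which include the lowest Treg KO and the highest Treg KI library for Gbp2.

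For KI against WT in Treg cultures all 8 values were above 0, with a median of 0.65 and a range of 0.39 to 0.79. For KI against KO 7 of 8 were below 0, from -1.01 ± 0.41 (SE) for Gbp2 to -0.06 ± 0.32 for Gbp9, with Gbp8 at 0.03 ± 0.31. Treg KI 3, low in Foxp3 and with a CD8 T and NK cell marker sum of 449 CPM, was the highest Treg KI library for all 8 genes. The median of KI against KO was -0.78, and -1.20 without the 4 libraries low in Foxp3.

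The part of other cell types in the Treg values was not tested, and their markers are given here. All 5 B cell markers were found in each group, and they summed to 11.3 to 112.9 CPM in Treg KO, 68.9 to 520.2 CPM in Treg KI and 13.9 to 137.8 CPM in Treg WT. The 6 markers of myeloid and dendritic cells summed to 7.15 to 22.3 CPM in Treg KO, 7.06 to 36.03 CPM in Treg KI and 10.8 to 51.1 CPM in Treg WT. The 5 CD8 T and NK cell markers summed to 23.4 to 138.2 CPM, 24.3 to 449 CPM and 15.1 to 668.5 CPM in these 3 groups, and the 3 Th1 markers to 9.69 to 208.2 CPM, 4.73 to 219.5 CPM and 5.84 to 918 CPM. In bulk RNA, fewer cells of a type and less RNA per cell cannot be told apart.

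In Th0 and Th1 cultures KO libraries stood below WT in the mean for most members, and none of these differences passed. In Th0 cultures Gbp2 stood at 414, 266, 319, 262 and 319 CPM in KO 1 to 5, at 629.7, 328, 799 and 543 CPM in KI 1, 3, 4 and 5, and at 539, 1517, 263, 393 and 1185 CPM in WT 1 to 5. The 3 groups overlapped, and Th0 WT 2 and Th0 WT 5 stood far above the other WT libraries. The log2 fold change of KO against WT was -1.30 ± 0.42 (SE) and its adjusted p by edgeR was 1.

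Gbp4 stood at 152, 85.55, 134.8, 120.6 and 133.4 CPM in Th0 KO, at 194, 299 and 207.5 CPM in Th0 KI 1, 4 and 5 and lower in Th0 KI 3, and at 199, 571, 96.5, 121.5 and 494 CPM in Th0 WT, with the same 2 WT libraries on top. In Th1 cultures Gbp2 stood at 295.5, 488, 144.5, 161 and 263 CPM in KO, at 232, 326, 286.5, 459 and 358 CPM in KI, and at 310.1, 977.5, 326, 294.5 and 1022 CPM in WT. There too WT 2 and WT 5 were the highest, and the other WT libraries lay within the KO range.

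All 8 members had negative values for KO against WT in Th0 cultures, from -1.30 for Gbp2 to -0.20 for Gbp7, with a median of -0.54 against 0 for all genes. By edgeR's quasi-likelihood test 0 of 8 were called, as were 0% of all genes, and 2 members, Gbp2 and Gbp4 (-1.24 ± 0.38), had an unadjusted p under 0.05, as did 4.79% of all genes. DESeq2 called 0 of 8, against 0.0137% of all genes. In Th1 cultures 7 of 8 were negative, with a median of -0.45, and Gbp5 stood at 0.01 ± 0.30 (SE). There again 0 were called by edgeR (0% of all genes) and by DESeq2 (0.0869%), and 2 members, Gbp2 at -1.12 ± 0.42 and Gbp4 at -0.91 ± 0.37, had an unadjusted p under 0.05, against 9.14% of all genes.

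No member differed past the threshold between KI and WT, or between KI and KO, in Th0 or Th1 cultures. For KI against WT, 0 of 8 members were called by edgeR or by DESeq2 in Th0, where 0.512% of all genes were by edgeR, and in Th1, where 0.0274% were, and 0 members had an unadjusted p under 0.05 in either, against 16.3% and 15.1% of all genes. DESeq2 called 3.01% of all genes in Th0 and 2.09% in Th1. The member values ran from -0.52 to 0.43 in Th0 and from -0.82 to 0.04 in Th1. For KI against KO in Th0 all 8 values were positive, 0.56 to 0.99 with a median of 0.78, and 0 passed by edgeR, as did 0% of all genes, or by DESeq2, as did 0.64%. There Gbp3 (0.85 ± 0.25) and Gbp9 (0.99 ± 0.34) had an unadjusted p under 0.05, against 12.3% of all genes. In Th1 the median was 0.30, and 0 members were called by edgeR (0% of all genes) or by DESeq2 (0.192%), with 0 at an unadjusted p under 0.05, against 5.93% of all genes. B cell markers summed to 27.7 to 243 CPM in Th0 KO, 68.03 to 969.5 CPM in Th0 KI and 33.6 to 612 CPM in Th0 WT, and their part in these values was not tested.

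Whether the KO or KI difference changed between Th1 and Th0 was tested directly. The KO effect in Th1 minus that in Th0 ran from -0.15 ± 0.45 (SE) for Gbp7 to 0.43 ± 0.43 for Gbp5. The KI effect in Th1 minus that in Th0 ran from -0.42 ± 0.35 for Gbp3 to 0.02 ± 0.54 for Gbp4. For the KO difference edgeR called 0 of 8 (0% of all genes), with 0 members at an unadjusted p under 0.05 (1.76% of all genes), and for the KI difference likewise 0 (0% of all genes) and 0 (3.26%). DESeq2 called 0 of 8 for both, against 0.0137% of all genes for KO and 0.00457% for KI. Their standard errors ran from 0.34 to 0.65.

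**Figure D3:**
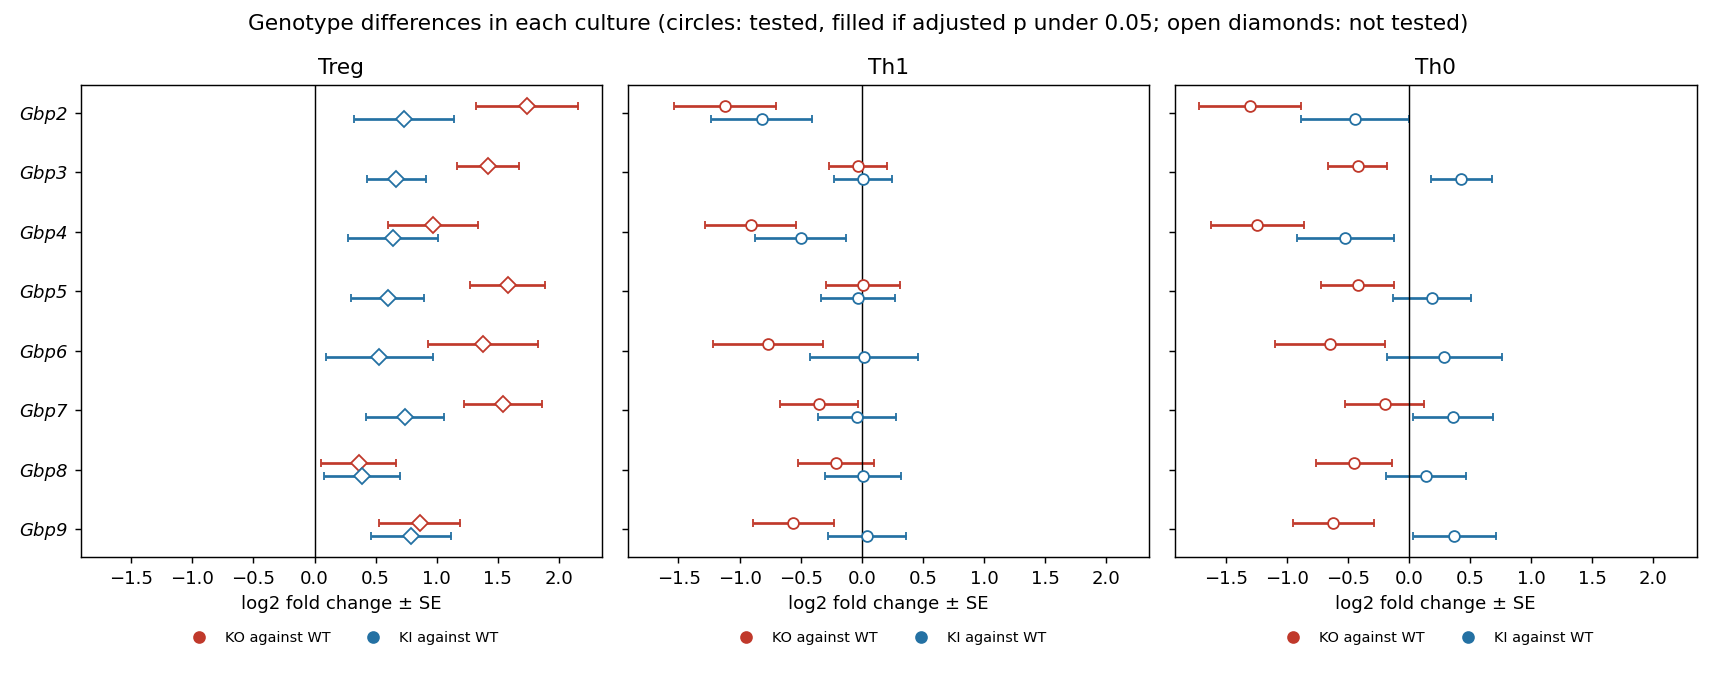
Log2 fold change ± SE of KO and of KI against WT in each culture, for the 8 genes. Circles were tested and none passed an adjusted p of 0.05, and open diamonds are the Treg values, which chose the genes and were not tested. All 8 points for KO in Treg lie above 0 and all 8 for KO in Th0 lie below it.

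In KO and in KI edgeR called Gbp6 and Gbp7 lower in Th1 than in Th0 cultures, but these calls depended on single libraries, as given below. Those of Gbp6 also carry the doubt about its reads. In KO, Gbp7 stood at 35.6, 90.2, 35.35, 36.3 and 57.5 CPM in Th1 and at 96.9, 73.9, 98.5, 102.4 and 136.5 CPM in Th0. Th1 KO 2 alone reached the Th0 range. The log2 fold change was -0.99 ± 0.32 (SE, adjusted p = 0.0403 by edgeR). Gbp6 stood at 32.8, 43.4, 37.0, 42.9 and 44.4 CPM in Th1 KO and at 107.2, 42.45, 130.3, 123.1 and 146 CPM in Th0 KO, where Th0 KO 2 lay within the Th1 range. Its log2 fold change was -1.45 ± 0.45 (SE, adjusted p = 0.0351 by edgeR). When the library number was a block it was -1.35 ± 0.49 (adjusted p = 0.0573 by edgeR), past the threshold no longer.

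In KI, Gbp7 stood at 49.6, 51.4, 104.5, 69.2 and 41.6 CPM in Th1 KI 1 to 5 and at 157, 153, 186 and 101.8 CPM in Th0 KI 1, 3, 4 and 5. Th1 KI 3 stood just above the lowest Th0 library, and the log2 fold change was -1.24 ± 0.33 (SE, adjusted p = 0.0207 by edgeR). Gbp6 stood at 58.9, 43.4, 95.8, 89.1 and 58.95 CPM in Th1 KI and at 266, 108.1, 276 and 192 CPM in Th0 KI, with no overlap, where 4.4% of all genes were lower without overlap. The log2 fold change was -1.60 ± 0.47 (SE, adjusted p = 0.0354 by edgeR). Gbp9 stood at 47.6, 36.6, 56.65, 70.1 and 46.4 CPM in Th1 KI and at 128.4, 65.4, 162 and 77.5 CPM in Th0 KI, overlapping in Th1 KI 4 and Th0 KI 3. It was close to the threshold at -1.07 ± 0.34 (SE, adjusted p = 0.0542 by edgeR), and it passed once the library number was a block, at -1.0 ± 0.30 (adjusted p = 0.0271 by edgeR).

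In WT the same 2 genes had log2 fold changes of -1.33 ± 0.45 for Gbp6 and -0.84 ± 0.32 (SE) for Gbp7, and 0 of 8 members were called by edgeR, against 3.04% of all genes, or by DESeq2, against 4.53%. At an unadjusted p under 0.05 there were 4 of 8 members, Gbp4, Gbp6, Gbp7 and Gbp9, against 14.7% of all genes. Gbp6, Gbp7 and Gbp9 were lower in the Th1 library than in the Th0 library of the same number in 5 of 5 pairs. How many of all genes were so was not counted, and nothing is read from this. Gbp6 stood at 53.2, 87.6, 33.1 and 38.9 CPM in Th1 WT 1 to 4 and higher still in Th1 WT 5, and at 205, 268, 56.15, 67.7 and 265 CPM in Th0 WT, with WT 2 and WT 5 highest in both cultures.

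Gbp5 and Gbp3 passed in neither direction. Gbp5 stood at 293, 343.5, 231, 234 and 283 CPM in Th1 KO and at 204, 93.0, 207.5, 176 and 201 CPM in Th0 KO, higher in Th1 in 5 of 5 pairs and with no overlap, where 7.12% of all genes were higher without overlap. The log2 fold change was 0.65 ± 0.30 (SE) and did not pass (adjusted p = 0.169 by edgeR). It was -0.01 ± 0.32 in KI and 0.22 ± 0.30 in WT. Gbp3 stood at 0.40 ± 0.24 in KO, -0.40 ± 0.25 in KI and 0.02 ± 0.24 in WT, and none passed.

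The median log2 fold change of the members was -0.33 in KO, -0.77 in KI and -0.58 in WT. Here edgeR called 0 members higher and 2 lower of 8 for Th1 against Th0 in KO, where 4.18% of all genes were called lower, and 0 higher and 2 lower in KI, where 2.94% were. DESeq2 called the same 2 in KO, where it called 12.6% of all genes, and 3 in KI, Gbp6, Gbp7 and Gbp9, where it called 8.78%. The summed B cell markers were lower in Th1 than in the Th0 library of the same number in 5 of 5 KO pairs, 4 of 4 KI pairs and 4 of 5 WT pairs. Summed myeloid and dendritic markers, and likewise summed CD8 T and NK cell markers, were lower in Th1 in 4 of 5 KO pairs, 4 of 4 KI pairs and 4 of 5 WT pairs. The part of these cells in these values was not tested. In KO the count was 2 without Th0 KO 2, 1 without Th1 KO 2 and 0 without any other single library of the comparison. In KI it was 0 without Th1 KI 1, Th1 KI 2, Th1 KI 5, Th0 KI 1 or Th0 KI 4, and 2 or 3 without any other single library, and in WT it was 1, Gbp6, without Th1 WT 5.

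For Treg against Th0 in KI edgeR called Gbp5 and Gbp7 lower, 2 of 8 members where 16.9% of all genes were. These calls are not read as a result about the family. Gbp7 stood at 64.8, 39.75, 131.5, 46.6 and 29.8 CPM in Treg KI 1 to 5, against the Th0 KI values given above, a log2 fold change of -1.26 ± 0.33 (SE, adjusted p = 0.00317 by edgeR). Treg KI 3 alone lay within the Th0 range. Gbp5 stood at 161, 133.2, 235, 129.6 and 114.7 CPM in Treg KI and at 290.4, 167, 382 and 238 CPM in Th0 KI, a log2 fold change of -0.80 ± 0.32 (SE, adjusted p = 0.0494 by edgeR). Blocked on the library number it was -0.75 ± 0.32 (adjusted p = 0.0645 by edgeR), past the threshold no longer.

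All 8 members had negative values for Treg against Th0 in KI, with a median of -0.79, and 2 were called lower where 16.9% of all genes were. Between the same cultures the myeloid and dendritic markers summed to 7.06 to 36.03 CPM in Treg KI and 1.44 to 9.68 CPM in Th0 KI, higher in Treg in 4 of 4 pairs. The CD8 T and NK cell markers were higher in Treg in 3 of 4 pairs, and the B cell markers, at 68.9 to 520.2 CPM in Treg KI and 68.03 to 969.5 CPM in Th0 KI, were lower in Treg in 3 of 4 pairs. Their part was not tested. The count was 5 without Treg KI 3, 1 without Treg KI 1, 2, 4 or 5 or without Th0 KI 1 or 4, and 8 when WT 4, KO 2 and KI 3 were left out of each culture. The shares of all genes called in these fits are not given here, so the higher counts are not read as a result about the family. Against Th1 in KI, Gbp5 had a log2 fold change of -0.79 ± 0.30 (adjusted p = 0.0409 by edgeR), and the other 7 ran from -0.27 to 0.79. That is 1 of 8 lower where 15.8% of all genes were, so it is not read as a result about the family. Without Treg KI 3 the count was 2, Gbp5 and Gbp8, and it was 0 without any other single library except Th1 KI 3. The myeloid and dendritic markers and the CD8 T and NK cell markers were higher in Treg than in Th1 in 5 of 5 KI pairs, and the B cell markers in 3 of 5, and their part was not tested.

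In the comparisons that use Treg WT or Treg KO libraries, described only, WT and KO had opposite signs for most members, a difference that was not tested. For Treg against Th0 in WT all 8 values were negative, from -1.99 ± 0.38 (SE) for Gbp4 to -0.80 ± 0.24 for Gbp3. In KO 7 of 8 were positive, up to 1.09 ± 0.42 for Gbp2. For Treg against Th1, Gbp6 had the largest value in KO, 2.42 ± 0.47, while in WT it was 0.27 ± 0.44. The medians against Th1 were 0.88 in KO and -0.81 in WT, and nothing is read from these values, which use the libraries that chose the genes. Comparisons of Treg with Th0 and with Th1 share the Treg libraries.

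**Figure D4:**
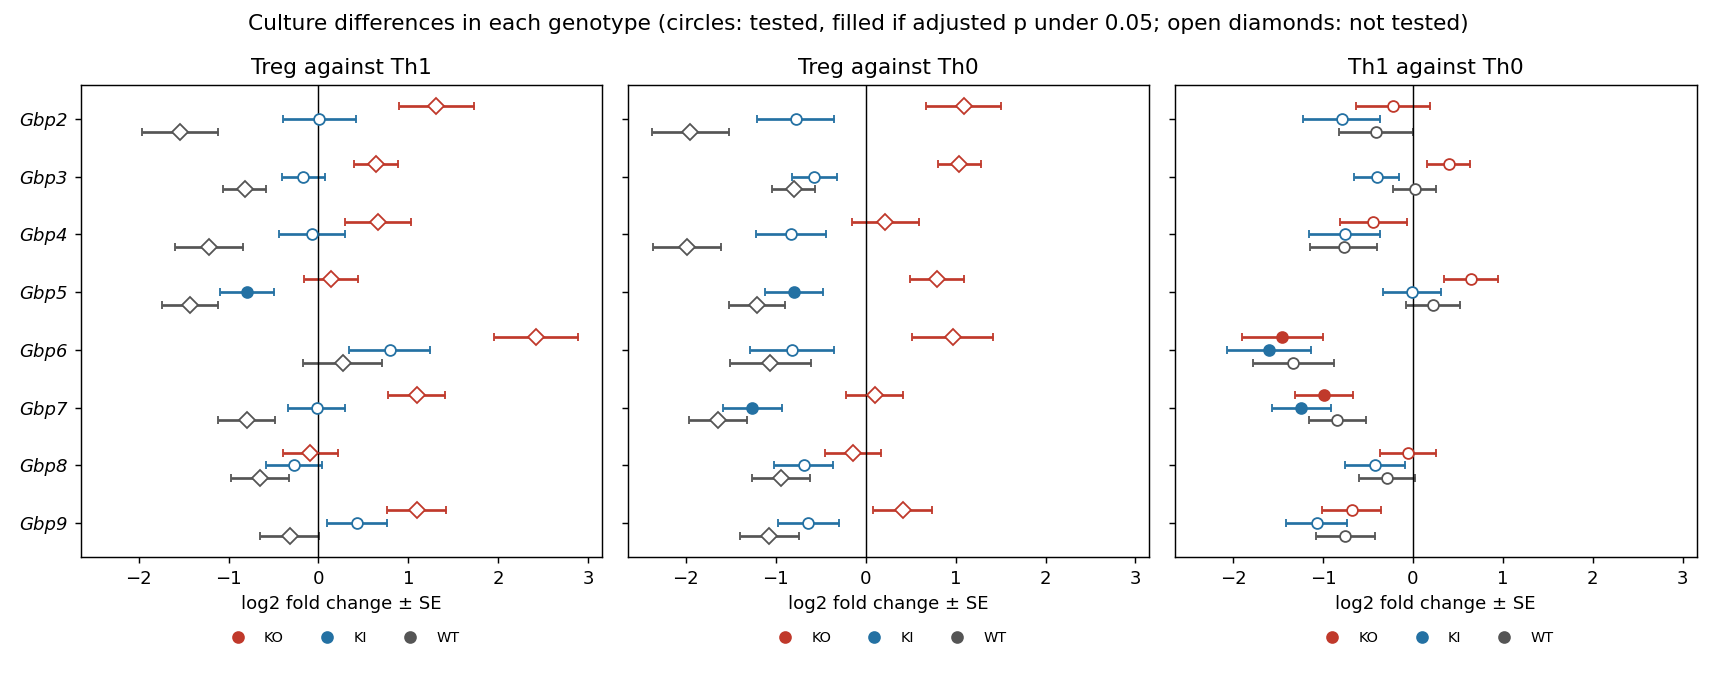
Log2 fold change ± SE between cultures for the 8 genes in KO, KI and WT. Circles were tested, filled where the adjusted p was under 0.05, and open diamonds were not tested, since their libraries chose the genes. Gbp6 and Gbp7 lie below 0 for Th1 against Th0 in KO and KI, and for Treg against Th0 the WT points lie below 0 while 7 of 8 KO points lie above it.

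The members varied together from library to library. Over the 28 pairs of members and 44 libraries, the correlation of log2 CPM ran from 0.422 for Gbp6 with Gbp8 to 0.905 for Gbp2 with Gbp4, and after group means were subtracted it ran from 0.398 for Gbp5 with Gbp8 to 0.891 for Gbp2 with Gbp4. Gbp5 with Gbp6 stood at 0.424 before and 0.805 after that subtraction. Cultures of the same number varied together and all genes of a library share its depth, so these are descriptions with no test. The closest gene to Gbp2 was Gbp4 and the reverse, to Gbp8 it was Gbp4, and Gbp3 and Gbp5 were closest to each other at 0.738. Gbp7 was closest to the serpin gene Serpina3f at 0.855 and Gbp9 to Ticam2, which encodes an adaptor of Toll-like receptor 4, at 0.863, while Gbp6 was closest to Gm43302 at 0.993, with which it shares sequence.

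The genes most like the family mean over the 44 libraries, among 10257 candidates with mean log2 CPM from 2 up, were Gbp10 at 0.878, Irf1 at 0.756, Nampt, which encodes an enzyme of NAD synthesis, at 0.751, Serpina3f at 0.746, the immunity-related GTPase gene Irgm1 at 0.738, the antiviral gene Mx1 at 0.727, Sla at 0.724 and Ube2l6, which encodes the conjugating enzyme of ISG15, at 0.721, with 2 predicted genes. After group means were subtracted they were Gbp10 at 0.862, Tgtp2 at 0.836, Irgm1 at 0.83, Gvin3 and Irf1 at 0.826, Tgtp1 at 0.818 and Gvin2 at 0.779, with 2 predicted genes. Of 10 genes on each scale, 6 were shared when WT 4, KO 2 and KI 3 of each culture were left out.

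Ifng itself showed little correlation with the family. Its value with the family mean was 0.058 over all libraries and -0.05 within groups, where Irf1 had 0.756 and 0.826, Cd8a -0.067 and -0.046, and Foxp3 -0.201 and 0.02. The sum of the Treg markers had -0.545 and -0.491, and that of the B cell markers 0.34 and 0.297. Th0 WT 2 and Th0 WT 5, with 1517 and 1185 CPM of Gbp2, held 38.9 and 57.4 CPM of Ifng, and Th0 WT 4, with 393 CPM of Gbp2, held 1660 CPM of Ifng. In the same 3 libraries Irf1 stood at 367, 305 and 140.6 CPM in that order. Th0 WT 4 also had the highest CD8 T and NK cell and B cell marker sums of Th0 WT, 200.5 and 611.7 CPM. The 44 libraries include the Treg cultures, which held an antibody that neutralises interferon-gamma. The part of either in these values was not tested.

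**Figure D5:**
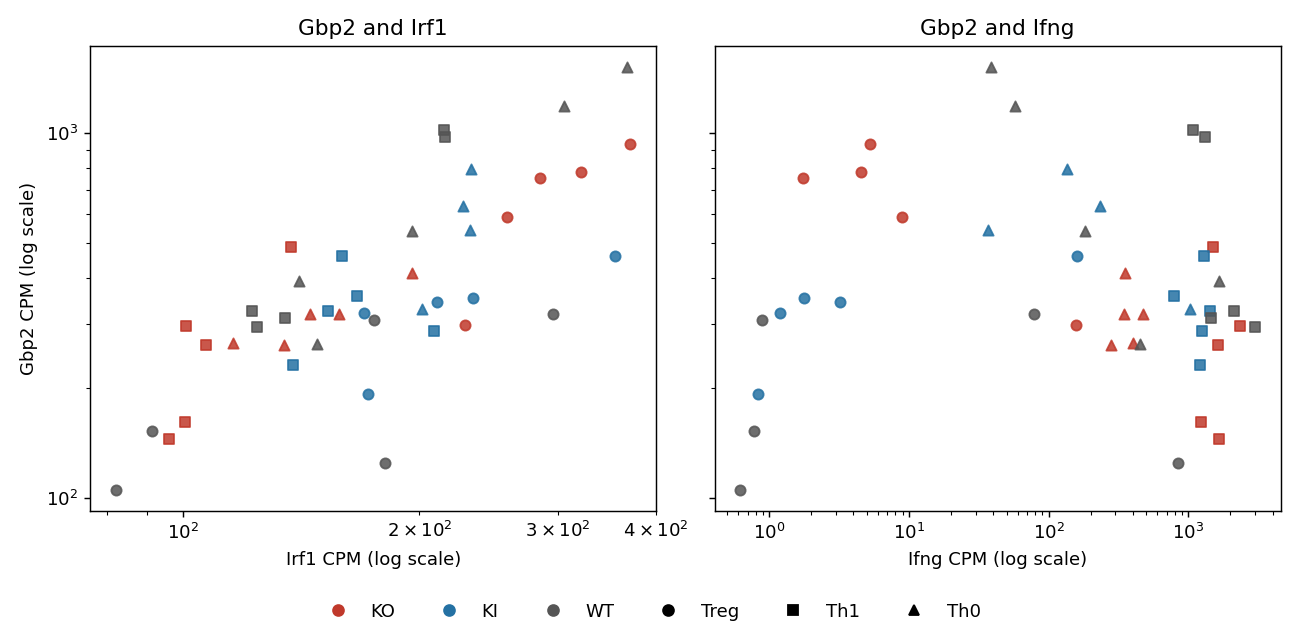
CPM of Gbp2 against CPM of Irf1 and of Ifng in the 44 libraries (log scales), coloured by genotype with a shape for each culture. Irf1 correlated with the family mean at 0.756 and Ifng at 0.058, and Th0 WT 2 at 1517 CPM of Gbp2 held 38.9 CPM of Ifng.

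The same numbers of WT library were not high in every culture. WT 2 and WT 5 had the highest Gbp2 of Th1 WT (977.5 and 1022 CPM) and of Th0 WT (1517 and 1185 CPM), and Treg WT 2 and Treg WT 5 stood at 152 and 105.3 CPM, below the other Treg WT libraries except Treg WT 4. Gbp4 ran alike, at 229.6 and 321 CPM in Th1 WT 2 and 5 and 571 and 494 CPM in Th0 WT 2 and 5, but at 64.8 and 34.03 CPM in Treg WT 2 and 5, the lowest of their group.

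Other genes of the interferon response were read from lists. A list of 8 immunity-related GTPase genes holds mostly genes of smaller GTPases that act with guanylate-binding proteins on vacuoles. It also holds Gvin1, which encodes a very large GTPase. For Th1 against Th0 edgeR called 5 of the 8 lower and 1 higher in KO and in KI, and 3 lower in WT. Of all genes 5.33% were called higher and 4.18% lower in KO, 2.98% and 2.94% in KI, and 2.22% and 0.818% in WT, against which all counts of this comparison are to be set. In KO these were Tgtp2 at -1.40 ± 0.31, Irgm1 at -1.28 ± 0.28, Tgtp1 at -1.19 ± 0.29, Ifi47 and Gvin1, with Irgq, a divergent relative, higher at 0.72 ± 0.16 (SE). The list medians were -0.94 in KO, -1.04 in KI and -0.72 in WT, against 0.01, -0.02 and -0.01 for all genes. Of 17 interferon-gamma signalling genes 1 was called higher and 1 lower in each genotype, the feedback inhibitor Socs3 at 2.40 ± 0.46 and the receptor gene Ifngr2 at -1.16 ± 0.19 (SE) in KO. Of 12 antiviral interferon-stimulated genes 1 was called lower in KO, Mx1 at -2.87 ± 0.85 (SE), 3 lower in KI, with Mx1 at -3.34 ± 0.89, and 0 in WT.

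Beside the members, Gbp10 fell by 1.96 ± 0.58 on the log2 scale in Th1 KI against Th0 KI (SE, adjusted p = 0.0365 by edgeR) and stood at -1.63 ± 0.56 in KO and -1.53 ± 0.55 in WT, which did not pass. It shares 66.6% of its 150-base words with Gbp6 or Gm43302. Of 9 MHC class I processing genes 1 was called lower in Th1 in KI, B2m, and 0 in KO and WT. The 9 autophagy genes whose products place guanylate-binding proteins had 0 calls for Th1 against Th0 in any genotype. Of 6 inflammasome genes 1 was called lower in KO, the DNA sensor gene Aim2 at -0.48 ± 0.15 (SE), 1 in KI, the adaptor gene Pycard at -1.21 ± 0.32, and 0 in WT.

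For Treg against Th0 in KI edgeR called 16.7% of all genes higher and 16.9% lower. There 9 of the 12 antiviral genes were called lower and 0 higher, with Rsad2 at -4.37 ± 0.98 and Mx1 at -4.27 ± 0.92 (SE). Of the 17 signalling genes 5 were called higher, among them the receptor genes Ifngr1 at 1.30 ± 0.28 and Ifngr2 at 0.91 ± 0.20, and 3 lower, among them the chemokine genes Cxcl10 at -4.08 ± 0.72 and Cxcl9 at -3.13 ± 0.88. Of the immunity-related GTPase genes Irgm1 was lower at -0.79 ± 0.29 and Irgq higher at 0.81 ± 0.18. Of the 3 other family genes 2 were lower, Gbp11 at -2.01 ± 0.55 and Gbp10 at -1.58 ± 0.58. Of the MHC class I genes 0 were called higher and 3 lower, of the autophagy genes 2 higher and 3 lower, and of the inflammasome genes 1 higher, Pycard, and 2 lower, Casp4 at -2.33 ± 0.28 and Casp1 at -1.77 ± 0.33. For Treg against Th1 in KI the counts were 6 higher and 4 lower for signalling, 2 and 0 for immunity-related GTPase genes and 1 and 4 for antiviral genes, where 17% of all genes were called higher and 15.8% lower. For KO or KI against WT in Th0 and Th1, none of the genes of these lists were called by edgeR except the autophagy genes Gabarap at 0.67 ± 0.15 and Atg12 at 0.55 ± 0.12 for KI in Th0. The lists were chosen with earlier results of these data known.

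Matches to the miR-150 seed were looked for in the longest 3' UTR among the coding transcripts of each gene, shown because the microRNA is the targeted gene. Of the 8 members 2 have the 7 letters TTGGGAG that pair with bases 2 to 8 of the microRNA, Gbp4 and Gbp9, against 14.3% of 21020 genes. The match begins at base 2181 of the 3' UTR of Gbp4 and at base 2137 of that of Gbp9, in nearly the same surroundings, with the seed match in capitals, from chromosome 5 of GRCm38, minus strand.
Gbp4: tgctgtcttaTTGGGAGccattttgttt
Gbp9: tgctgttttaTTGGGAGccattttgttt
Their log2 fold changes for KO against WT were 0.97 and 0.86 in Treg cultures and -1.24 and -0.62 in Th0 cultures. Whether the match bears on these values was not tested. A match is a description of letters and not a site of action.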

How the data were processed

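The authors deposited whole-number counts per gene for each library and sequencing lane, and the 2 lanes of a library were summed. A normalised table that was also deposited was not used. The file headers name STAR alignments sorted by coordinate. The counter, its strand setting and its handling of multiple matches are not stated in any source used, and per the submitters' processing notes the build is GRCh38, although the gene identifiers are those of mouse. The 1492 genes with an identifier but no symbol were kept. Libraries within groups were no copies of each other, with a median chi-square of 6 or more in all 86 pairs, against 0.455 for copies.

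The main test was the quasi-likelihood test of edgeR 4.0.16 (R 4.3.3) on a model of 9 group means over all 44 libraries, after its filter by group and TMM normalisation, adjusted by the Benjamini-Hochberg method over 21873 genes and called at 0.05. CPM use TMM factors and are not per length unless stated. In all 13 contrasts were tested and 7 described. The members, lists and tests were chosen with earlier results of these data known. Genes outside the family were named by a rule: Mir150, Ifng, Irf1, Cd8a and Foxp3, the 10 genes most like the family on each scale, the closest gene to each member, and up to 4 called genes of each list by size of change, without predicted genes. A gene that the rule names is not reported here. Ifngr1, Irgq, Atg12, the marker genes and Gm43302 are named beside these where a count of 5 or fewer or shared sequence called for it.

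Libraries of the same genotype and number deviated together between Th1 and Th0 (correlations of 0.398 to 0.753 in KO, 0.223 to 0.778 in KI and 0.587 to 0.771 in WT), and between Treg and Th0 in KI (0.3 to 0.512) and WT (0.244 to 0.587) but not in KO (-0.028 to 0.357). Between Treg and Th1 the lowest were 0.157 in KO, 0.158 in KI and 0.149 in WT. By these lowest correlations, numbers are taken as pairs within a genotype except for Treg against Th0 in KO. There 4 of 5 libraries still matched their own number best, against 3 of 5 for Treg with Th1 in WT. The main test held no block for the pairs. Between genotypes they did not pair. Alternatives were DESeq2 1.42.0, its size factors, no filter, a block for the library number, fewer groups, the Cd8a level as a term, and fits without single libraries, without WT 4, KO 2 and KI 3 of each culture, or without the 4 Treg libraries low in Foxp3. With 3 counts as the limit that a count of 0 allows, depth limited no member.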

Additional observations from a re-analysis of the deposited data

Results flagged for a closer look

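Within single groups, 3 of the 72 sets of libraries held a library far from the others, and chance flags about 1 in 20 such sets. Th0 KO 2 had 93.0 CPM of Gbp5, the lowest of its group, and Th1 KI 3 with 41.9 CPM and Th1 KO 2 with 40.1 CPM had the highest Gbp8 of theirs. These 3 libraries carry the numbers KO 2 and KI 3, which were high in CD8 T and NK cell markers. In Th1 KO, though, library 3 at 55.1 CPM was close to library 2 at 57.6 CPM. B cell markers summed to 243.3 CPM in Th0 KO 2, 700.9 CPM in Th1 KI 3 and 186.4 CPM in Th1 KO 2, each the highest of its group. The part of these cells in the flagged values was not tested.

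Against Th0, Gbp3 moved in opposite directions in KO and KI for every pair of libraries of the same number. For Th1 against Th0 the median log2 ratio was 0.26 in KO (higher in 5 of 5 pairs) and -0.30 in KI (lower in 4 of 4 pairs). For Treg against Th0 the median was 1.23 in KO (higher in 5 of 5 pairs) and -0.67 in KI (lower in 4 of 4 pairs). Those of Treg against Th0 are a description, since Gbp3 was chosen on the Treg KO libraries and the numbers did not pair Treg with Th0 in KO, where the lowest correlation was -0.028. The smallest log2 ratios of single pairs for Th1 against Th0 were 0.06 in KO and -0.04 in KI. Gbp3 was found by looking over all members and culture comparisons, and how many of all genes do the same was not counted. These differences were not tested.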

How the results depend on the processing

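For KO or KI against WT and KI against KO in Th0 and Th1 cultures, and for both differences of effects, 0 members were called under each alternative run. For Th1 against Th0 in KO, where 2 were called, the count was 0 without the filter on low counts, 1 with a replicate block (adjusted p of Gbp6 0.0573 by edgeR), 4 when only the groups compared were fitted, and 0 to 2 without single libraries. In KI, where 2 were called, it was 1 without the filter, 3 by DESeq2, with the Cd8a level as a term or with a replicate block, and 0 to 3 without single libraries, and in WT 0 to 1 without single libraries. For Treg against Th0 in KI, where 2 were called, it was 1 without the filter, 6 without the Treg libraries low in Foxp3, 8 when WT 4, KO 2 and KI 3 of each culture were left out, and 1 to 5 without single libraries. For Treg against Th1 in KI, where 1 was called, it was 0 without the filter, 0 with the Cd8a level as a term, 2 without the Treg libraries low in Foxp3 and 0 to 2 without single libraries. The causes were not tested. Most of these counts stand without the share of all genes called in the same fit, so higher ones are not read as results about the family. Of the member values larger than their SE or called, 1 changed direction under an alternative, Gbp8 for KI against WT in Treg cultures, which ran from -0.13 (without Treg KI 3) to 0.57 without single libraries, and the 52 values within 1 SE of 0 were not followed. The paired block changed the calls of Gbp6, Gbp9, Gbp5 and Gbp8 named here or in the comparisons (Gbp8 passed for Treg against Th0 in KI). Shares of all genes called moved further: for KI against WT in Th0 it was 0.512% by edgeR, 3.01% by DESeq2 and 0 genes when only the groups compared were fitted. The alternatives that leave out libraries low in Foxp3, and all those of the described comparisons, were chosen after seeing the data.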
